A study of Mus musculus with 6 samples.

Results

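The liver carboxylesterases described here are 10 genes, Ces1b, Ces1c, Ces1d, Ces1e, Ces1f, Ces1g, Ces2a, Ces2e, Ces3a and Ces3b, each found by its symbol as a row of its own among the 29981 rows of the deposited table. The table holds 20 carboxylesterase rows in all. Carboxylesterases are serine hydrolases of the endoplasmic reticulum lumen, some of them secreted, that cleave esters of lipids and drugs. In hepatocytes, Ces1d is known as triacylglycerol hydrolase, which releases fatty acids from stored triglyceride for the assembly of very-low-density lipoprotein. The mouse genome holds many copies of these genes in tandem arrays, where the human genome has few.

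RNA of livers was sequenced from C57BL/6 mice in which hepatocytes lack the cholesterol and phospholipid exporter Abca1 through a Cre recombinase driven by the Albumin promoter (HSKO, 3 samples). The controls carried floxed alleles and are labelled wildtype (WT, 3 samples). All mice went without food from 9 am to 1 pm before the liver was taken. Age and sex, and whether the controls carried Cre, are not among the details in the sources used here. No label ties a sample to an animal of its own, so the spread behind the p-values may be technical. The libraries were shallow, with 631020 to 933319 recovered reads, of which a single row, BC071253, took 43.1% to 57.8%. The deleted gene itself, Abca1, was counted 20, 36 and 34 times in WT and 2, 1 and 2 times in HSKO, lower in every HSKO library.

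The 10 genes lie on mouse chromosome 8 (mm10) in a pair of arrays. The 6 Ces1 genes are all on the minus strand between 93056728 and 93337308, and the Ces2 and Ces3 genes are on the plus strand between 104734003 and 105093929, 11.4 Mb away. Copies within a subfamily are close in sequence. Coding sequences of Ces3a and Ces3b were 95.3% identical, those of Ces1b and Ces1c 90.9% and those of Ces2a and Ces2e 83.3%, and genes of different subfamilies were 52.3% to 56.2% identical over the aligned bases. Reads of close copies may therefore have been split between them by the authors' counting. Of all windows of 50 bases in the transcript, 30.9% in Ces3a and 26.1% in Ces3b also occurred in a transcript of another gene, as did 22.2% in Ces2a, 17.0% in Ces1c and 11.6% in Ces1b. In Ces1d, Ces1e, Ces1f, Ces1g and Ces2e this share was 1.28% to 3.36%. Ces1d and Ces3a each overlap an unclassified gene model on the minus strand, Gm45909 and Gm45724. Gm45909 lies on the same strand as Ces1d, and the strand setting of the counting is not known.

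The promoter table of RefSeq (build GRCm38.p6) matched 7 of the 10 genes, and Ces1d, Ces1f and Ces3a had no entry. The 250 bases before the farthest upstream transcription start are shown for the pairs that shared the longest runs of bases, since the members of each pair can be compared with their values below. Ces1b and Ces1c, on the minus strand, are at chr8:93080018-93080267 and chr8:93131284-93131533. Ces2a and Ces2e, on the plus strand, are at chr8:104733753-104734002 and chr8:104926010-104926259. Capitals mark the longest run that both members of a pair contain, 58 bases in the Ces1 pair and 17 bases in the Ces2 pair.
Ces1b: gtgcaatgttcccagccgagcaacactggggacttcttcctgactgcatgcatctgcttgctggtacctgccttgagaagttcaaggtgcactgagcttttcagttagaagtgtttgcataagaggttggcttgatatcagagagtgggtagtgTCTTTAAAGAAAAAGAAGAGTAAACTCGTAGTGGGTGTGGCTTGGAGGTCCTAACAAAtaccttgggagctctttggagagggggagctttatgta
Ces1c: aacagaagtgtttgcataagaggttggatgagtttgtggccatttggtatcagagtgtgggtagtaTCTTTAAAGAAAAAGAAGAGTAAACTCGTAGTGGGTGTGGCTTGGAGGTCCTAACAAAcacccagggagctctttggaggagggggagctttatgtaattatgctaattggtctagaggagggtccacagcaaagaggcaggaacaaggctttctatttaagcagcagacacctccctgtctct
Ces2a: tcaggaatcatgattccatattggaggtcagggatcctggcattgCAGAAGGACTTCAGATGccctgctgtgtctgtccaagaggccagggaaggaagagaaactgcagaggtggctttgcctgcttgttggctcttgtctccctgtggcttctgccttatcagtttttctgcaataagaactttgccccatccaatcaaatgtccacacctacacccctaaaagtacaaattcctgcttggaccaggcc
Ces2e: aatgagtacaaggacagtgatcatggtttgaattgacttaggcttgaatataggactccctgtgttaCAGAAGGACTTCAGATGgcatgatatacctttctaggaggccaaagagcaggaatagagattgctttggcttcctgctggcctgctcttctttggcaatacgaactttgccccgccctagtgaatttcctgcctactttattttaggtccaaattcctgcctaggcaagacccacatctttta

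Counted from the start, the shared run spanned positions -96 to -39 in Ces1b and -184 to -127 in Ces1c. In Ces2a it spanned -205 to -189 and in Ces2e -183 to -167. Any other pair of the 7 promoters shared a run of at most 11 bases. On either strand, the nuclear receptor half-site AGGTCA was found in 1 of the 7 windows (Ces2a) and in 14.0% of all 32851 promoter windows. The CCAAT box was found in 4 of 7 (Ces1c, Ces1g, Ces2a and Ces3b, against 33.8%) and the TATA box letters TATAAA in 2 of 7 (Ces1g and Ces3b, against 12.4%). The HNF1 half-site GTTAAT was found in 1 of 7 (Ces3b, against 6.43%) and the HNF4 letters CAAAGTCCA in 0 of 7 (against 0.384%). No motif is contained in another, and a match or its absence describes only these letters in these windows.

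In WT livers Ces1c and Ces3a were the most abundant carboxylesterase transcripts. Levels are given in normalized reads, that is, the recovered reads over the size factor of their library, and genes are compared after division by transcript length. Per kb of transcript, the WT level was 160 ± 8.87 for Ces1c and 143 ± 27.6 for Ces3a (SD, n = 3), and these 2 genes together took 60.4% to 71.4% of the reads of the 10 genes in the 6 libraries. Ces1f (38.6 ± 9.54), Ces3b (33.2 ± 7.07) and Ces1d (29.8 ± 9.81) followed, with ranges that overlapped from each gene to the next but lay below that of Ces3a. Ces2a (14.4 ± 3.87), Ces1e (12.5 ± 3.84), Ces1g (11.0 ± 3.72), Ces1b (7.68 ± 1.27) and Ces2e (6.76 ± 2.38) were lower, each overlapping the next, and all libraries of Ces2a lay below those of Ces1d.

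The order differed in HSKO livers. Ces1c (104 ± 27.7) and Ces3a (89.2 ± 12.6) still led per kb and overlapped each other. Ces2a, at 13.2 ± 1.78, stood above Ces1d, at 7.94 ± 2.46, in all 3 HSKO libraries, the reverse of their order in WT, and their ranges overlapped in neither group. Ces1b (6.17 ± 2.24), Ces1e (4.70 ± 2.16), Ces1g (4.53 ± 3.35) and Ces2e (2.07 ± 0.943) came last, each overlapping the next.

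The contrast of HSKO against WT addresses which liver transcripts differ when hepatocytes lack Abca1. Of the 10 carboxylesterases, 8 fell in HSKO livers and 0 rose, while Ces1b and Ces2a did not pass the test. Ces1d, Ces2e, Ces1g and Ces1e had the lowest log2 fold changes, from -1.84 to -1.37, and the other 4 that fell lay between -0.97 and -0.65. A call is a Benjamini-Hochberg adjusted p below 0.05 from limma on log2(normalized reads + 1) over 2750 rows with a mean of at least 10. All 10 genes passed that filter, but Ces1e and Ces2e only through the WT libraries, where they were high. Their HSKO means were 9.74 and 5.58. Over all rows tested, 11.6% were called lower and 28.5% higher. All 10 log2 fold changes were below 0, as were 47.7% of all rows, and the median was -0.82 against 0.07 over all rows. Of the 10 genes, edgeR and DESeq2 called 0 higher (24.9% and 18.8% of all rows) and 8 and 6 lower (21.9% and 4.58% of all rows). In 7 of the 10 genes every HSKO library lay below every WT library, an arrangement found in 20.1% of all rows, and in 0 of the 10 did it lie above (31.4% of all rows).

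**Figure D1:**
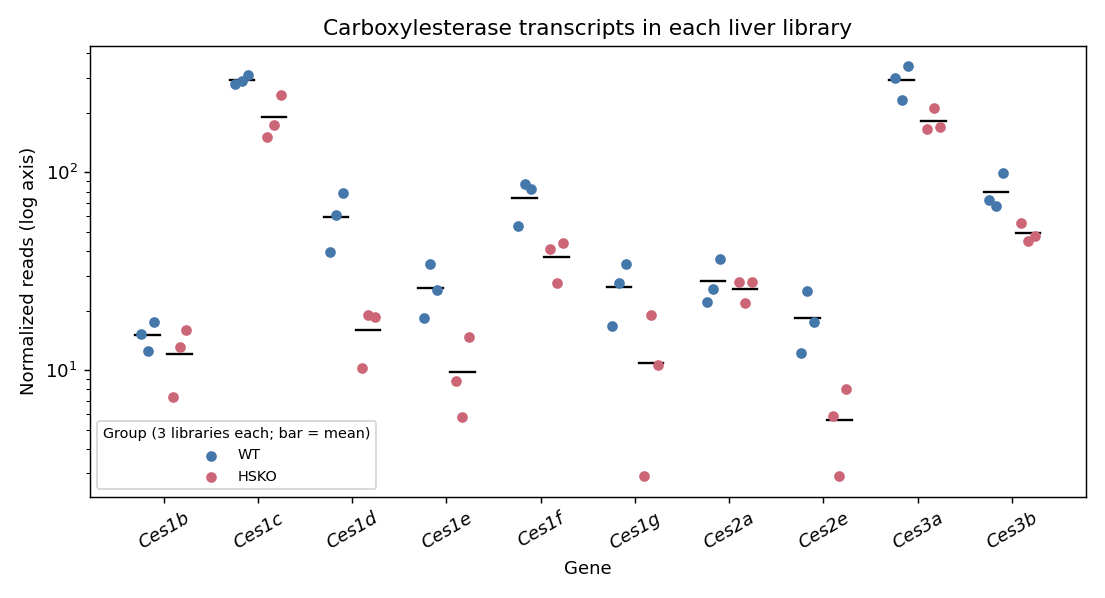
Normalized reads of each carboxylesterase (log axis) in the 3 WT libraries (blue) and the 3 HSKO libraries (red), with a bar at each group's mean. The groups are apart in 7 genes and overlap in Ces1b, Ces1g and Ces2a.

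Ces1d, the triacylglycerol hydrolase, had the lowest log2 fold change of the family. The WT libraries held 39.7, 60.5 and 79.0 normalized reads, from 52, 92 and 140 reads, and the HSKO libraries 10.2, 18.9 and 18.6, from 7, 13 and 14 reads. The highest HSKO library was thus below the lowest WT library, and the WT mean was 3.75 times the HSKO mean (log2 fold change -1.84, SE 0.31, adjusted p = 0.000652). Ordered by log2 fold change from the lowest, Ces1d ranked 9 of 2750 rows. The call held without each of the 6 libraries in turn, with log2 fold changes from -2.10 to -1.57.

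The other enzymes of the Ces1 array that are known to act on triglyceride, Ces1f and Ces1g, also fell. Ces1f, the second triacylglycerol hydrolase of the array, was at 53.4, 87.5 and 82.3 in WT and 40.9, 27.6 and 43.9 in HSKO, groups that did not overlap (log2 fold change -0.97, SE 0.28, adjusted p = 0.00978). Ces1g, whose loss in mice is known to raise liver and plasma lipids, was at 16.8, 27.6 and 34.4 in WT and 2.92, 18.9 and 10.6 in HSKO. HSKO replicate 2 thus exceeded WT replicate 1, and HSKO replicate 1 rested on 2 reads (log2 fold change -1.44, SE 0.45, adjusted p = 0.0175). Without HSKO replicate 1 the log2 fold change of Ces1g was -0.78 (adjusted p = 0.105). Its call was also lost without WT replicate 2 (adjusted p = 0.0537), without WT replicate 3 (0.101) and in DESeq2 (0.0740). The call of Ces1f was lost without WT replicate 2 (adjusted p = 0.0626) and without HSKO replicate 2 (0.0644).

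Ces1e, known as egasyn, the partner that holds beta-glucuronidase in the endoplasmic reticulum, fell as well. It was at 18.3, 34.2 and 25.4 in WT and 8.77, 5.82 and 14.6 in HSKO, groups that did not overlap, although the HSKO values came from 6, 4 and 11 reads (log2 fold change -1.37, SE 0.36, adjusted p = 0.00554). Without WT replicate 2 it no longer passed (log2 fold change -1.16, adjusted p = 0.0512).

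Ces1c, which encodes a carboxylesterase of mouse plasma, fell as well. Its WT libraries were at 279, 288 and 310 and its HSKO libraries at 151, 173 and 247, so that HSKO replicate 3 came within 1 SD of the HSKO group of the lowest WT library (log2 fold change -0.65, SE 0.24, adjusted p = 0.0377). Ces1b, its neighbour with the shared promoter run, was at 15.3, 12.5 and 17.5 in WT and 7.31, 13.1 and 16.0 in HSKO, and the groups overlapped (log2 fold change -0.34, SE 0.36, adjusted p = 0.450). Leaving out a library ended the call of Ces1c in 4 of 6 cases, with adjusted p of 0.165 and 0.136 for HSKO replicates 1 and 2 and 0.103 and 0.0654 for WT replicates 2 and 3.

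In the Ces2 subfamily, whose enzymes cleave drug esters and neutral lipids, Ces2e fell and Ces2a did not pass. Ces2e was at 12.2, 25.0 and 17.5 in WT and 5.85, 2.91 and 7.98 in HSKO, the latter from only 4, 2 and 6 reads (log2 fold change -1.57, SE 0.44, adjusted p = 0.00839). Ces2a was at 22.1, 25.7 and 36.7 in WT and 27.8, 21.8 and 27.9 in HSKO, with groups that overlapped (log2 fold change -0.10, SE 0.28, adjusted p = 0.801). Within a library, reads of Ces2a were 1.81, 1.03 and 2.10 times those of Ces2e in WT and 4.75, 7.50 and 3.50 times in HSKO. This ratio does not depend on how libraries are scaled. Its groups did not overlap, as was so for 45.2% of all pairs of tested rows with reads in every library. The call of Ces2e was lost without WT replicate 2 (log2 fold change -1.33, adjusted p = 0.0890). The value of Ces2a turned positive without WT replicate 3 (0.10) and without HSKO replicate 2 (0.02).

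Ces3a and Ces3b, a pair of hepatic esterases next to each other in the array, both fell. Ces3a was at 301, 232 and 343 in WT and 165, 212 and 170 in HSKO (log2 fold change -0.67, SE 0.24, adjusted p = 0.0315). Ces3b was at 72.5, 67.8 and 99.3 in WT and 55.5, 45.1 and 47.9 in HSKO (log2 fold change -0.66, SE 0.25, adjusted p = 0.0415). In both genes the groups did not overlap. Given their sequence identity, the 2 rows may share reads, which was not tested. The call of Ces3a held in 2 of the 6 analyses that left out a library, with adjusted p up to 0.106 (without HSKO replicate 1), 0.0505 without HSKO replicate 2, 0.0772 without HSKO replicate 3 and 0.0832 without WT replicate 3. That of Ces3b held in 1 of 6, without WT replicate 1, with adjusted p up to 0.165 (without WT replicate 3), 0.0506 and 0.129 without HSKO replicates 1 and 2, 0.0770 without HSKO replicate 3 and 0.0653 without WT replicate 2.

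**Figure D2:**
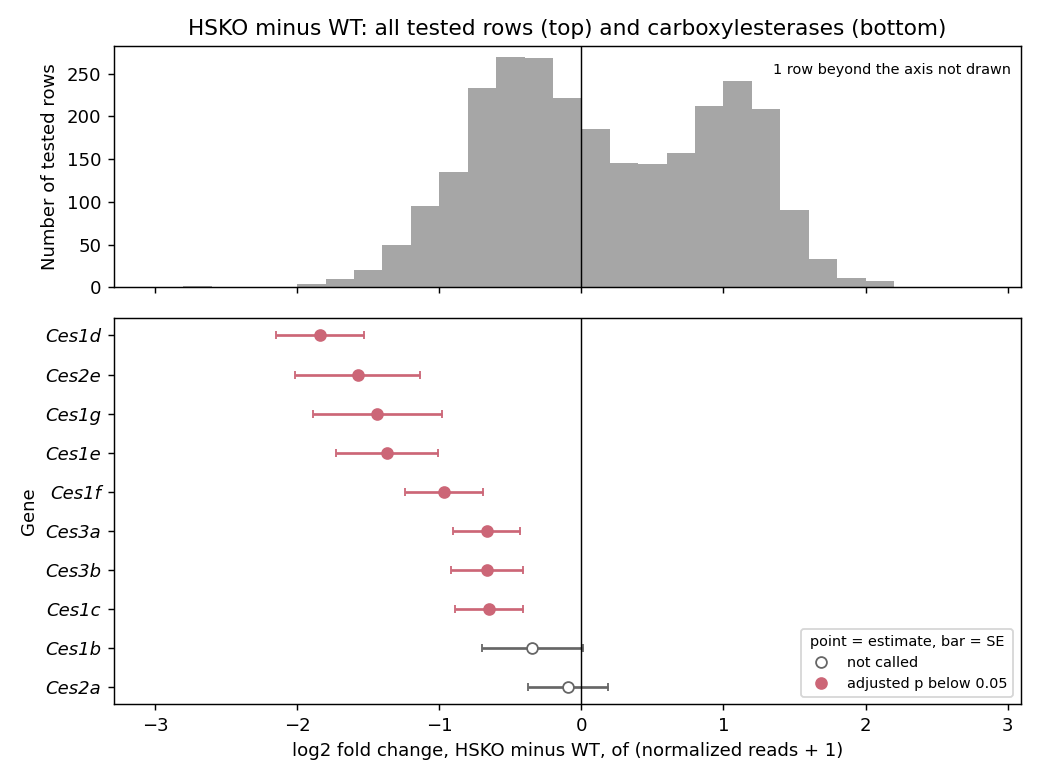
Top, the number of tested rows by log2 fold change of HSKO minus WT, with 1 row beyond the axis left out. Bottom, the log2 fold change of each carboxylesterase with its SE, filled in red where adjusted p was below 0.05, from -1.84 in Ces1d to -0.10 in Ces2a.

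The make-up of the family, as shares of its reads, had groups that did not overlap for 3 genes. The summed reads of the 10 genes numbered 1088, 1308 and 1854 in the controls and 325, 371 and 455 in HSKO. Per 1000 reads outside BC071253 they came to 2.58 to 3.89 in the controls and 1.18 to 1.31 in HSKO. That scaling shifted the median log2 fold change of all tested rows by -0.47 relative to the deposited one. With the deposited scaling the family total ranged from 830 to 1046 normalized reads across control libraries, against 475 to 605 across HSKO libraries. The relative drop was thus smaller there. Of the summed reads, Ces1d took 4.78%, 7.03% and 7.55% in the WT libraries and 2.15%, 3.50% and 3.08% in the HSKO libraries. Its share was lower in every HSKO library, with a mean of 6.45% ± 1.47 in WT and 2.91% ± 0.690 in HSKO (SD, n = 3). The exact 95% intervals were widest in HSKO, such as 0.870% to 4.39% in HSKO replicate 1, and cover counting error only.

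Ces2a took more of the family's reads in every HSKO library, with 2.67%, 2.98% and 3.51% in WT and 5.85%, 4.04% and 4.62% in HSKO. Ces2e took 2.02% ± 0.777 in WT and 1.03% ± 0.427 in HSKO, with groups that did not overlap. In the other 7 genes the shares of the groups overlapped. Ces1c held 32.2% ± 2.22 in WT and 34.9% ± 5.20 in HSKO, and Ces3a 32.0% ± 4.75 and 34.1% ± 5.64. When the reads of every tested row were divided by the same sums, HSKO lay below WT in 1.45% of rows and above it in 53.7%. The sums were themselves lower in HSKO, which moves other rows up, and the members' shares add to a fixed total. These percentages are therefore not a like-for-like background for the shares.

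**Figure D3:**
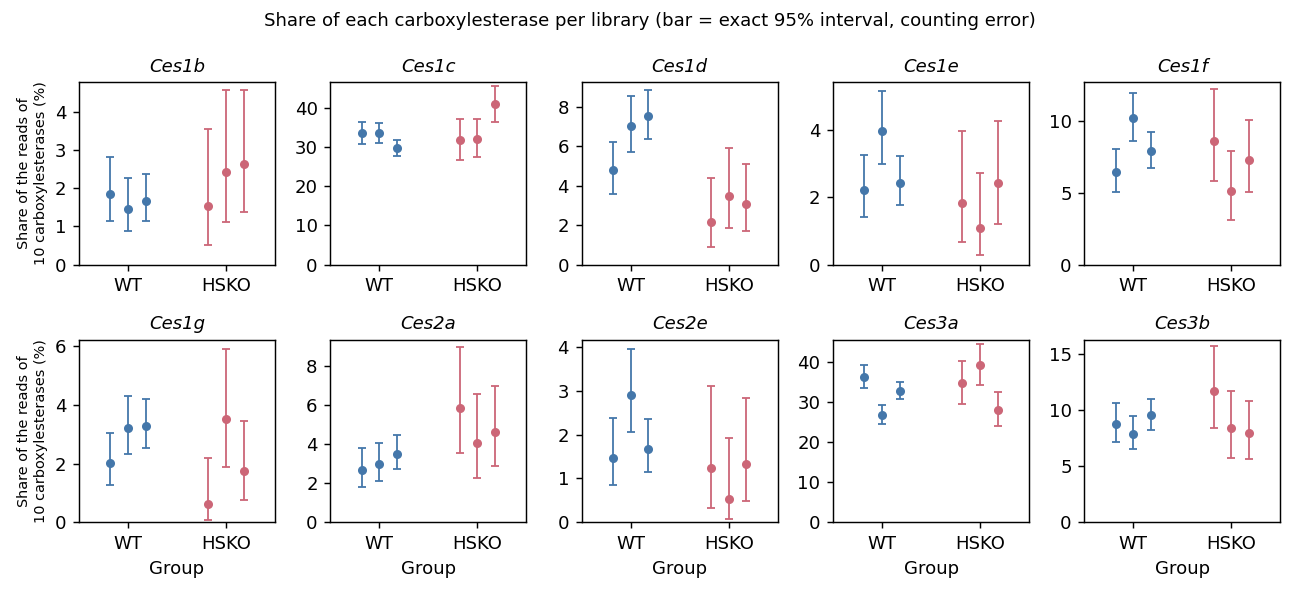
Share of each gene in the summed reads of the 10 carboxylesterases (vertical axis, percent) per library, with exact 95% intervals for counting error, for WT (blue) and HSKO (red). The groups are apart in Ces1d and Ces2e, lower in HSKO, and in Ces2a, higher in HSKO.

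Ratios of reads between 2 members in the same library need no scaling. Of the 45 pairs of members, 14 had groups that did not overlap. This is a smaller share than the 45.2% of all pairs of tested rows with reads in every library, so such pairs are not particular to the family. Ces1d was in 6 of the 14 pairs, Ces2a in 5, Ces2e in 4 and Ces1g in 0. The mean log2 ratio of Ces1c to Ces1d was 2.35 in WT and 3.60 in HSKO. In WT, Ces1d had more reads than Ces2a (log2 ratio 0.84 to 1.24) and in HSKO fewer (-1.44 to -0.21).

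Of 15 hepatocyte markers, all tested, 5 fell, 0 rose and 10 did not pass, with a median log2 fold change of -0.54 (0.07 over all rows, of which 11.6% were called lower), and their summed level was 16382 to 19106 in WT and 10318 to 15100 in HSKO. In a bulk sample, fewer cells of a type and less RNA per cell cannot be told apart. Relative to the geometric mean of these markers in the same library, Ces1d differed by -1.51 on the log2 scale, with WT libraries at -4.00, -3.29 and -3.16 and HSKO libraries at -5.41, -4.59 and -4.99. Ces1c, Ces1d, Ces1e and Ces2e were the genes whose HSKO libraries all lay below WT on this measure. Of these, Ces1e and Ces2e passed the filter on the mean only through the WT libraries, where they were high. Over all rows, 6.18% lay below and 40.7% above, and of the 10 genes 0 lay above. Ces2e differed by -1.37, Ces1e by -1.08 and Ces1c by -0.26, and Ces2a by 0.29 with overlapping groups. Leaving out a library kept the sign of Ces1c, Ces1d, Ces1e and Ces2e on this measure, but relative to albumin alone the value of Ces1c was 0.0628. Whether hepatocyte content differed between the samples was not tested.

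With libraries scaled to those markers, limma called 3 of the 10 genes lower, Ces1d (log2 fold change -1.46, adjusted p = 0.00149), Ces1e (-1.01, 0.0383) and Ces2e (-1.23, 0.0383), where 2.11% of all rows were called lower. These 3 genes were called lower in all 7 ways of scaling, although Ces1e and Ces2e passed the filter on the mean only through the WT libraries. Ces1f and Ces1g were called in 6 of 7, and Ces1c, Ces3a and Ces3b in 5 of 7, their adjusted p being 0.0971, 0.0784 and 0.0959 with upper quartile scaling and 0.495, 0.492 and 0.507 with the marker scaling. Ces1f and Ces1g had adjusted p of 0.151 and 0.0802 with the marker scaling. The calls of Ces1c, Ces3a and Ces3b were also lost with no filter (adjusted p = 0.102, 0.0862 and 0.121) and with no mean-variance trend (0.0840, 0.0743 and 0.0725), and that of Ces3b in DESeq2 (0.0833). With total read scaling 9 of the 10 were called lower, Ces1b included (log2 fold change -0.97, adjusted p = 0.0495), as were 38% of all rows. The median of all rows shifted by -0.64 with total reads and by 0.37 with the marker scaling, and the value of Ces1b ranged from -0.97 to 0.02 and that of Ces2a from -0.75 to 0.28. Over all rows, 320 were called lower and 783 higher with the deposited scaling, 1044 and 221 with total reads, 913 and 429 with reads outside BC071253, 502 and 595 with quantile normalization, 601 and 684 with edgeR and 58 and 990 with the marker scaling.

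Set against the share of all rows called lower, the count of carboxylesterases called lower was 8 with quantile normalization (18.3%) and 8 with scaling to reads outside BC071253 (33.2%). It was 5 with upper quartile scaling (7.56%), 5 with no filter (1.53%), 5 with no mean-variance trend (9.67%) and 4 of 4 tested with a minimum mean of 50 (17.2%). Without WT replicates 1, 2 and 3 in turn it was 8 (11.4%), 2 (5.78%) and 4 (5.71%), and without HSKO replicates 1, 2 and 3 it was 4 (9.31%), 4 (8.55%) and 6 (10.3%). Ces1d was among those called in each of these analyses but the one with a minimum mean of 50, where Ces1d was not tested, and the 2 called without WT replicate 2 were Ces1d and Ces3a.

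**Figure D4:**
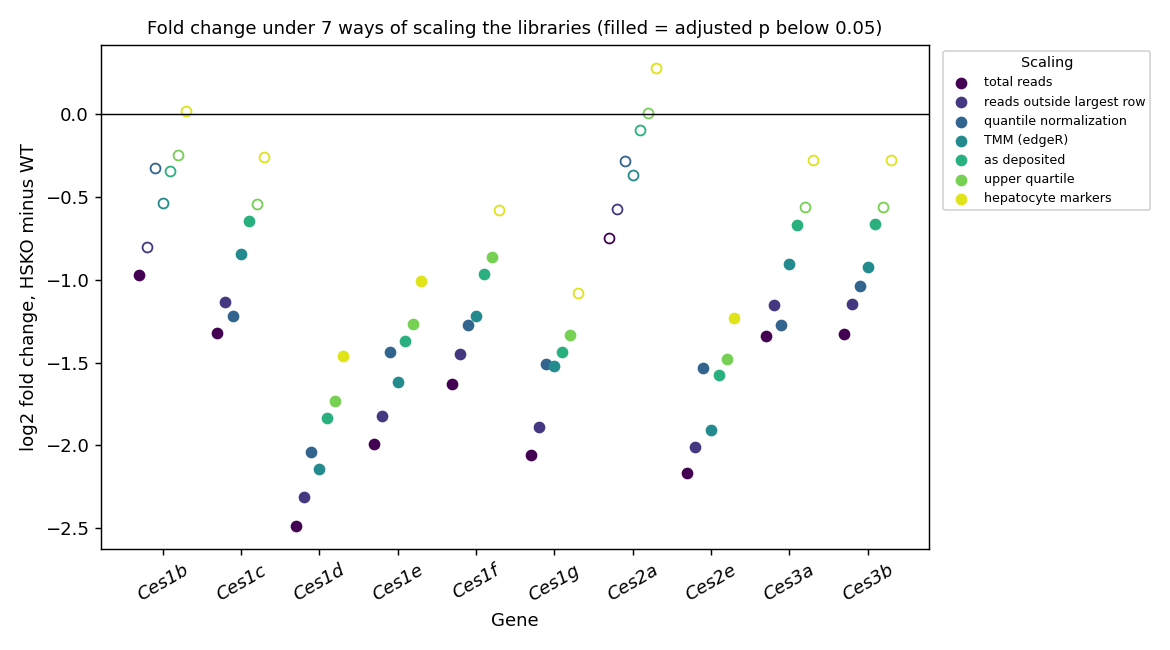
Log2 fold change of HSKO minus WT for each carboxylesterase under 7 ways of scaling the libraries (colours), filled where adjusted p was below 0.05. Ces1d, Ces1e and Ces2e are filled in all 7, and Ces2a in none. Ces1e and Ces2e passed the filter on the mean only through the WT libraries, where they were high. All 7 scalings use the same reads.

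Markers of other cell types were low. The sums of 10 rows of Kupffer cell and macrophage markers were 54.9 to 101 in WT and 45.3 to 70.5 in HSKO, and those of 9 liver endothelial markers 43.5 to 67.7 and 29.1 to 40.9. The 9 stellate cell and fibroblast markers summed to 42.9 to 44.7 and 16.1 to 32.0, with Dcn called lower (log2 fold change -1.41, adjusted p = 0.00626). In the macrophage list Cd5l was called lower (-1.18, 0.0442), and in the hepatocyte list Cyp2e1 (-0.82) and Fgg (-0.73) had the smallest p. Dcn (HSKO mean 7.07) and Cd5l (6.46) passed the filter on the mean only through the WT libraries, where they were high. Of 7 adipocyte markers, Adipoq, Lep, Plin1 and Retn had 0 reads in all 6 libraries, and the sum was at most 5.82. Ces1d is also abundant in fat tissue. Cholangiocyte markers summed to 10.7 to 15.8 in WT and 5.32 to 17.5 in HSKO, with Krt19 and Krt7 at 0 reads in all 6 libraries. Red blood cell markers summed to 14.1 to 25.0 and 14.5 to 21.3. In WT, the lymphocyte and neutrophil markers summed to at most 0.564 and the pancreas acinar markers to at most 2.29, and both were at 0 in HSKO. The part of stellate, endothelial and macrophage transcripts in the falls was not tested.

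The other 10 carboxylesterase rows had few reads. Ces1a, Ces1h, Ces2b, Ces2f, Ces2h and Ces5a had 0 reads in every library, which allows up to 3 reads in each. Ces2c had 10, 4 and 11 reads in WT and 7, 2 and 1 in HSKO (adjusted p = 0.727 without the filter). Ces2g, named after its values were seen, had 8, 5 and 7 reads in WT and 0, 1 and 1 in HSKO, and did not pass without the filter (log2 fold change -1.57, adjusted p = 0.159). Ces4a and Ces2d-ps had at most 2 and 4 reads.

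Of 25 other liver enzymes that cleave esters, lipids or epoxides, 15 passed the filter. Of these, 4 were lower and 1 higher (11.6% and 28.5% of all rows) and 10 neither. Their median log2 fold change was -0.68. Lipa, 1 of the 4 lower and named after its values were seen, passed the filter only through the WT libraries (WT mean 15.0, HSKO mean 5.66). Pon1, the lipoprotein-bound paraoxonase, fell from 50.2 ± 9.23 to 18.8 ± 2.97 normalized reads (SD, n = 3 per group, log2 fold change -1.36, limma adjusted p = 0.00106), and the microsomal epoxide hydrolase Ephx1 from 29.3 ± 9.78 to 13.6 ± 3.02 (-1.03, 0.0133). Abhd2, a serine hydrolase, rose from 5.23 ± 0.137 to 32.3 ± 22.2 (log2 fold change 2.14, adjusted p = 0.00155), but it passed the filter on the mean only through the HSKO libraries, where it was high. With the marker scaling 1 of the 15 was lower, Pon1 (adjusted p = 0.0159), and 1 higher (2.11% and 36% of all rows). Ephx1 was not called there (adjusted p = 0.124).

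In a list of genes of lipid droplets and of very-low-density lipoprotein assembly, the process that Ces1d supplies with lipid, 4 of 9 tested were lower and 0 higher. The shares of all rows were 11.6% and 28.5%. With the marker scaling 1 was lower, Plin2 (adjusted p = 0.00768), and 0 higher, against 2.11% and 36% of all rows. The 4 lower with the deposited scaling were Apob, Mttp, Plin2 and the row of P4hb, which also names a sequence record. The median of the 9 was -0.65. Plin2, the lipid droplet coat protein, had a log2 fold change of -1.46 (adjusted p = 0.000802). The P4hb row, for the protein disulfide isomerase that is a subunit of the transfer protein made by Mttp, had one of -0.86 (adjusted p = 0.00527). It was not called with the marker scaling (adjusted p = 0.196), and neither were Apob and Mttp.

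Of 7 tested chaperones and disulfide isomerases of the endoplasmic reticulum lumen, where most carboxylesterases reside, Pdia4, Hspa5 and Pdia6 were lower and 0 were higher (median -0.57). The shares of all rows were 11.6% lower and 28.5% higher. With the marker scaling 1 was lower, Pdia4 (adjusted p = 0.0290), and 1 higher (2.11% and 36% of all rows). Pdia4 fell from 32.1 ± 6.70 to 11.0 ± 8.42 normalized reads and Hspa5, also called BiP, from 90.3 ± 8.80 to 50.5 ± 2.40 (SD, n = 3 per group, limma adjusted p = 0.00330 and 0.0107). Hspa5 was not called with the marker scaling (log2 fold change -0.44, adjusted p = 0.259).

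Of 15 transcription factors and cofactors known to regulate genes of this family or of liver metabolism, 7 passed the filter. Of these, 1 was lower and 1 higher (11.6% and 28.5% of all rows) and 5 neither (median -0.06). Nr1i3, which encodes the xenobiotic receptor CAR, rose from 39.0 ± 1.94 to 97.0 ± 22.4 normalized reads (SD, n = 3 per group, log2 fold change 1.27, limma adjusted p = 0.00114), with no overlap. Ppara, the receptor for fatty acids, fell from 42.3 ± 2.72 to 19.6 ± 6.28 (log2 fold change -1.12, adjusted p = 0.00429). The log2 fold change of Nr1i3 was 1.65 with the marker scaling and 0.60 with total read scaling, where it was not called, and that of Ppara was -0.74 with the marker scaling (adjusted p = 0.0555).

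Of 13 tested rows of enzymes and transporters that CAR and the related receptor PXR are known to induce, 5 were lower and 0 higher (median -0.58). The shares of all rows were 11.6% and 28.5%. With the marker scaling 2 were lower and 0 higher, against 2.11% and 36% of all rows. The bilirubin conjugate exporter Abcc2 (log2 fold change -1.41, adjusted p = 0.000773) and the retinal dehydrogenase Aldh1a1 (-1.42, 0.00119) had the smallest p. The CAR targets Cyp2b10, Cyp2b9 and Cyp2b13, named after their values were seen, had 0 reads in all 6 libraries.

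The rows nearest in profile to Ces1d over the 6 libraries were Sc5d (a row it shares with a sequence record), Idi1, Rgn, Lars2 and Klkb1. Their root mean square distances to Ces1d, on log2(normalized reads + 1) centred on each row's mean, were 0.22, 0.23, 0.30, 0.31 and 0.31. Those nearest to Ces2a, the gene with the highest log2 fold change of the family, were Cryz, Taok3, Ndufb10, Gls2 and Tmed2, at distances of 0.08 to 0.15. Idi1 (HSKO mean 3.76) passed the filter on the mean only through the WT libraries, where it was high. These distances describe 6 libraries and carry no test.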

How the data were processed

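Liver messenger RNA of 3 WT and 3 HSKO samples was sequenced as stranded, paired-end libraries, per the labels' protocols. The deposited table holds a signal per row and library, gene-level reads that the authors divided by a size factor. FastQC 0.11.3, Bowtie, RSEM 1.2.9, DESeq 1.16.0 and mm10 are listed, without roles, in the submitters' processing notes. Annotation, strand setting and treatment of reads shared by several genes: not given in the sources used here. Of the rows, 712 name several genes.

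Dividing each value by that of 1 read gave whole reads for 100% of values (tolerance 0.001), and so the depth. Chi-square per degree of freedom was 2.12 to 8.68 for pairs within a group, above counting noise. limma 3.58.1 (R 4.3.3) on log2(value + 1), HSKO minus WT, 2-sided, with a mean-variance trend, called 1103 of 2750 rows. Recovered reads went to edgeR 4.0.16 (quasi-likelihood, TMM) and DESeq2 1.42.0, which called 1285 and 786 rows. Adjusted p-values are limma's where no tool is named. The 7 scalings were the deposited one, upper quartile, quantile, total reads, reads outside the largest row (chosen after seeing the data), hepatocyte markers and edgeR's TMM. The limma procedure was tested on simulated data with a fixed dispersion, known size factors and equal numbers of rises and falls. That simulation does not test the choice of scaling.

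Coordinates and coding sequences are from GENCODE M21 (mm10), using the transcript with the longest coding sequence, and identities from MAFFT 7.526. The genes and lists were chosen with earlier results of these data known. Named are all 10 members, other carboxylesterases with at least 10 reads in some library, up to 2 lower and 2 higher genes of each list by smallest p, and the 5 rows nearest in profile to the members with the lowest and highest log2 fold change.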

Additional observations from a re-analysis of the deposited data

How the results depend on the processing

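The number of carboxylesterases called lower, 8 in the main analysis, was 5 with no filter, 4 with a minimum mean of 50 (where only 4 of the genes were tested), 5 with upper quartile scaling, 3 with scaling to hepatocyte markers, 5 with no mean-variance trend and 2 to 8 when 1 library was left out, and the cause was not tested. With the replicate number as a block 5 were called (9.78% of all rows), the calls of Ces1c, Ces3a and Ces3b being lost (adjusted p = 0.0558, 0.0578 and 0.0633). Same-numbered WT and HSKO samples deviated from their group means with correlations of -0.0261, -0.0275 and -0.0209. Samples with different numbers gave -0.0318 to 0.0534. No sign of pairing by number was thus seen, but with 3 samples per group these correlations cannot exclude it. Over all rows, 1103 were called, 509 with a minimum mean of 50 (fewer rows tested) and 738 to 1135 with 1 library left out.

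Of 184 log2 fold changes recomputed for single genes, 139 kept direction and call, 39 kept direction and lost the call, 1 gained it and 5 changed sign. The sign changed for Ces2a with upper quartile scaling (0.00654), with scaling to hepatocyte markers (0.28) and in 2 of the analyses that left out 1 library (-0.25 to 0.10 over the 6), and for Ces1b with scaling to hepatocyte markers (0.0190). None of these values was called in either direction. Relative to albumin alone instead of all hepatocyte markers, the log2 differences of Ces1b, Ces1c, Ces2a, Ces3a and Ces3b were 0.34, 0.0628, 0.61, 0.0441 and 0.0380. At this depth, HSKO values of Ces1b, Ces1d, Ces1e, Ces1g and Ces2e rest on 2 to 14 reads per library.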
